A study of Mus musculus with 7 samples.

Results

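A set of 10 mouse genes for secreted Wnt antagonists were examined in the femur after traumatic brain injury (TBI): Sost, Sostdc1, Dkk1, Dkk2, Dkk3, Wif1, Frzb, Sfrp1, Sfrp2 and Sfrp4. They were taken by name from the sclerostin, Dickkopf, Wif1 and secreted Frizzled-related families, with earlier results of these data known. Sfrp5 and Dkk4 of the same families were not among the 10 and are given with the other inhibitors. All 10 were found among the 49671 genes of the count table, and 9 had enough counts to be tested; Sostdc1 did not. Wild-type mice received a controlled cortical impact, a piston blow to the exposed brain surface, or were uninjured controls. RNA of the whole crushed femur was sequenced from 4 libraries at 3 days after TBI and from 3 control libraries. No source used here gives the strain, sex or age of the mice, or says whether the controls had sham surgery, so surgery and impact cannot be told apart. Nothing in the labels says that the replicates are separate animals, and p-values measure the spread between these libraries.

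Wnt proteins bind a Frizzled receptor together with the co-receptors Lrp5 or Lrp6, and the signal stabilizes β-catenin, which drives osteoblast formation in bone. Antagonists of these families can block this step outside the cell, which need not hold for each member. Sclerostin (Sost) and the Dickkopf protein Dkk1 occupy Lrp5 and Lrp6, whereas Wif1 and the secreted Frizzled-related proteins bind the Wnt ligands themselves. Sclerostin comes mainly from osteocytes, the cells embedded in mineral, and antibodies against it are used to raise bone mass.

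Total counts were 15461528 to 21783534 per library. Values are given as CPM, which scales the counts of each library to a common depth (here with TMM factors), and 1 count was worth 0.0426 to 0.0630 CPM. All of 16 osteoblast and 12 osteocyte markers had counts in every library, a low bar that does not check the label femur. The osteoblast list took 2.13% to 3.62% of the counts in controls and 1.22% to 2.05% after TBI. Skeletal muscle mRNA was present as well: a list of 21 muscle genes took 2.84% to 8.41% of the counts in controls and 3.36% to 13.4% after TBI, with the highest shares in TBI 3 and TBI 4.

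Most of the antagonists had lower estimated mRNA levels in the femurs of injured mice, though no member passed the adjusted threshold in edgeR. Dkk1 had the lowest estimate, a log2 fold change (TBI minus control) of −1.22, followed by Sost at −1.11 and Dkk3 at −0.91. Sfrp2, Wif1 and Sfrp4 formed a middle group at −0.59, −0.57 and −0.47. Dkk2, Frzb and Sfrp1 lay near 0. All 9 tested members had a lower estimate, Sfrp1 by a value indistinguishable from 0 whose sign turned with the scaling, against 45.6% of all 17144 tested genes. The 4 TBI libraries all lay below the 3 controls for 5 of the 9 members, which held for 5.38% of all tested genes; no tested member lay above all controls, against 2.66% of all genes. The same 5 members, Dkk1, Dkk3, Wif1, Sfrp2 and Sfrp4, had an unadjusted p under 0.05 and a lower value in edgeR's quasi-likelihood test (4.97% of all genes). None passed after Benjamini-Hochberg adjustment over all genes, where edgeR called 0 genes (0%). DESeq2 called 103 genes (0.613% of those with an adjusted p), among them 1 member, Dkk3; its count ran from 9 genes without control 2 to 199 without TBI 3 (53, 62 and 27 on leaving out control 3, TBI 1 or TBI 4, and 115 and 75 on leaving out control 1 or TBI 2). The median log2 fold change of the tested members was −0.57, and that of all tested genes 0.03. In bulk RNA of this kind, fewer cells of a type and less mRNA per cell cannot be told apart.

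**Figure D1:**
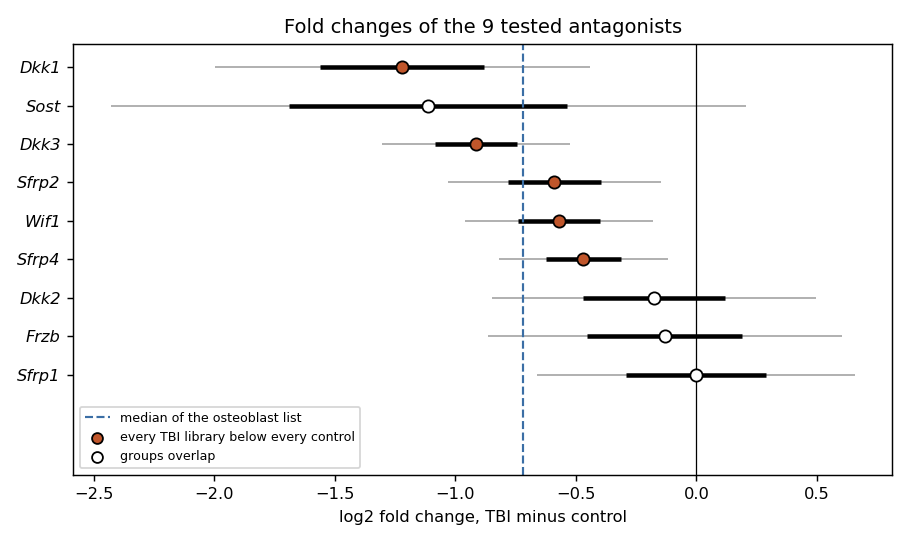
Log2 fold change (TBI minus control) of the 9 tested antagonists in edgeR, with the standard error as a thick bar and the 95% confidence interval as a thin bar. Filled points mark the 5 genes whose TBI libraries all lay below all controls; the dashed line is the median of the 16 osteoblast markers, −0.72.

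Sost and Dkk1 act on the Lrp co-receptors and are known as products of osteocytes and osteoblasts. Sost encodes sclerostin (GRCm38 chromosome 11, 101962458 to 101967015, minus strand). It measured 7.81, 10.4 and 4.80 CPM in controls 1 to 3 and 3.13, 7.88, 1.79 and 1.21 CPM in TBI 1 to 4. TBI 2 lay within the range of the controls, while the other 3 TBI libraries lay below every control. The log2 fold change was −1.11 ± 0.58 (SE) with a 95% interval of −2.43 to 0.20, and the adjusted p was 0.726 in edgeR and 0.623 in DESeq2. Without TBI 2 the estimate was −1.90, with an adjusted p of 0.585 in edgeR and 0.0128 in DESeq2, and it was −0.49 when TBI 3 and TBI 4 were both left out, an alternative added once the values were known. The counts behind these values were 92 to 173 in controls and 23 to 185 after TBI.

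Dkk1, a Dickkopf protein that binds Lrp5 and Lrp6 and whose own gene responds to Wnt signalling, lies on chromosome 19 (30545863 to 30549665, minus strand). Its mRNA stood at 6.91, 7.38 and 4.64 CPM in controls 1 to 3 and at 2.61, 4.34, 1.57 and 2.21 CPM in TBI 1 to 4. The groups did not overlap, although the highest TBI library, TBI 2, came within 0.298 CPM of the lowest control. The group means were 6.31 ± 1.46 CPM (SD, n = 3) and 2.68 ± 1.18 CPM (SD, n = 4), a 2.33-fold lower fitted level (log2 fold change −1.22 ± 0.34, adjusted p = 0.483 in edgeR and 0.0941 in DESeq2). Its estimate stayed between −1.57 and −1.04 when each library was left out in turn. DESeq2 called Dkk1 when TBI 2, its highest TBI library, was left out (adjusted p = 0.00514). Without control 2, DESeq2 gave Dkk1 no adjusted p, and with any other library left out it did not call the gene. In edgeR Dkk1 was not called without TBI 2 (adjusted p = 0.585).

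Sequence upstream of the start sites was read from the RefSeq promoter table (GRCm38.p6), which matched 6 members: Sost, Dkk1, Dkk2, Wif1, Frzb and Sfrp2; it held no entry for Sostdc1, Dkk3, Sfrp1 or Sfrp4. In the 250 bases before the RefSeq start, the core letters bound by the TCF/LEF factors of Wnt signalling, CTTTGA on either strand, occurred in Dkk1 and Frzb, 2 of the 6, and in 13.8% of all 32851 promoters in the table. The RUNX letters TGTGGT, on either strand, occurred in Dkk1 alone among the 6, where they did not overlap the TCF/LEF matches, and in 14.0% of all promoters. A match is a description of the letters and not a known site. The Dkk1 matches began 117 and 174 bases (TCF/LEF) and 207 bases (RUNX) before the RefSeq start, and the Frzb match 95 bases before it. GENCODE places the starts of both genes further upstream. The Frzb window and the Dkk1 window of the match at 117 bases lie wholly downstream of those starts. The Dkk1 window of the match at 174 bases spans the GENCODE start. The windows are shown 5′ to 3′ on the gene's strand, with the matched letters in capitals, because Dkk1 had the lowest estimate in the family and Frzb, with the same core, one of those nearest 0. The Sost upstream stretch held neither motif and is shown for comparison.
Dkk1, chr19:30549598-30549623, minus strand, TCF/LEF: cctcccaaagCTTTGAaatcccatcc
Dkk1, chr19:30549655-30549680, minus strand, TCF/LEF: ggggagagtgTCAAAGtcctccctgc
Dkk1, chr19:30549688-30549713, minus strand, RUNX: ggacaaggggACCACAgtgcaaggga
Frzb, chr2:80447476-80447501, minus strand, TCF/LEF: ccctgaaaacTCAAAGccttctcgga
Sost, chr11:101967016-101967265, minus strand: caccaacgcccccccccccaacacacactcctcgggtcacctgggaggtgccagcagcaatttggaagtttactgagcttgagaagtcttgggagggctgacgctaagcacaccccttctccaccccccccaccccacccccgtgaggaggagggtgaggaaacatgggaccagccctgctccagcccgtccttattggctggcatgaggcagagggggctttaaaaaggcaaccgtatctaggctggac

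Sostdc1, the closest relative of Sost and an antagonist of both Wnt and BMP signals, was barely detected. It had 2, 4 and 8 counts in controls 1 to 3 and 12, 1, 10 and 4 counts in TBI 1 to 4, or 0.04 to 0.54 CPM. The groups overlapped fully, several libraries lay near the 3 counts that a count of 0 would allow, and no fold change is given.

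The groups were separated for Dkk3 and overlapped for Dkk2, the other Dickkopf genes. Dkk3, the most divergent Dickkopf (chromosome 7, 112116017 to 112159057, minus strand), measured 43.5, 69.9 and 53.8 CPM in controls and 26.1, 33.9, 28.4 and 29.7 CPM in TBI 1 to 4. All 4 TBI libraries lay below all controls, and they spread less than the controls did. The means were 55.7 ± 13.3 CPM (SD, n = 3) and 29.5 ± 3.30 CPM (SD, n = 4), with a log2 fold change of −0.91 ± 0.17 (SE) and a 95% interval of −1.30 to −0.53. By unadjusted p in edgeR, Dkk3 ranked 12 of 17144 genes; its adjusted p was 0.423 in edgeR and 0.00919 in DESeq2. In DESeq2 the adjusted p rose to 0.0704 when control 3 was left out and to 0.0588 when TBI 4 was, which ended the call at log2 fold changes of −0.94 and −0.91. When control 2 was left out, DESeq2 gave Dkk3 no adjusted p, at a log2 fold change of −0.71. Dkk2, which can act for or against Wnt signalling, measured 3.38, 3.66 and 5.37 CPM in controls and 2.78, 2.68, 4.93 and 4.32 CPM in TBI 1 to 4. The groups overlapped, with a log2 fold change of −0.17 ± 0.29 and a 95% interval of −0.85 to 0.50. With the mean of the muscle list as a covariate the Dkk2 estimate was −0.40. Without TBI 3 and TBI 4, an alternative added once the values were known, it was −0.62 and the groups did not overlap (adjusted p = 0.490 in edgeR).

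**Figure D2:**
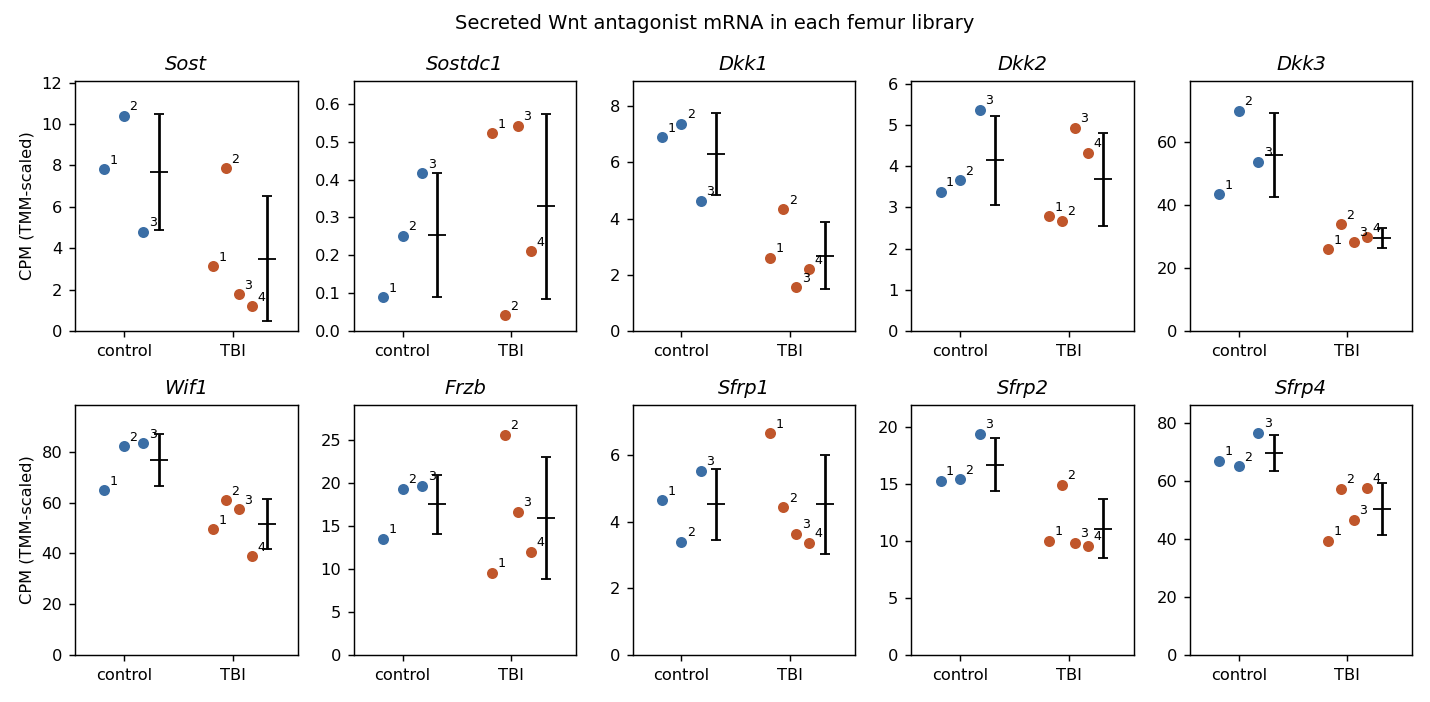
CPM of each antagonist in each library (points, numbered by replicate), with the group mean and SD (3 controls, 4 TBI) beside them; each panel has its own axis from 0. For Dkk3, Wif1, Dkk1, Sfrp2 and Sfrp4 all TBI points lie below all control points, while TBI 2 lies among the controls for Sost.

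Among the antagonists that bind Wnt ligands, Wif1 and Sfrp4 were the most abundant. Wif1, Wnt inhibitory factor (chromosome 10, 121033960 to 121100650, plus strand), measured 64.8, 82.2 and 83.4 CPM in controls and 49.5, 61.0, 57.5 and 38.9 CPM in TBI 1 to 4. The highest TBI library, TBI 2, lay 3.85 CPM below the lowest control, control 1. The log2 fold change was −0.57 ± 0.17 (SE), a 1.48-fold lower level, with an adjusted p of 0.521 in edgeR.

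Sfrp4, a secreted Frizzled-related protein whose human mutation causes a cortical bone disorder (Pyle disease), lies on chromosome 13 (19623104 to 19632994, plus strand). It measured 67.2, 65.2 and 76.7 CPM in controls and 39.4, 57.5, 46.7 and 57.8 CPM in TBI 1 to 4. All TBI libraries were below the controls, by at least 7.43 CPM. The log2 fold change was −0.47 ± 0.15 (SE; adjusted p = 0.579 in edgeR). Sfrp2 (chromosome 3, 83766321 to 83774316, plus strand) measured 15.3, 15.4 and 19.4 CPM in controls and 10.04, 14.9, 9.87 and 9.59 CPM in TBI 1 to 4. TBI 1, TBI 3 and TBI 4 lay close together, and TBI 2 lay apart from them, 0.357 CPM under the lowest control. Its log2 fold change was −0.59 ± 0.19 (adjusted p = 0.580 in edgeR and 0.335 in DESeq2). Without TBI 2 the estimate was −0.78, with an adjusted p of 0.585 in edgeR and, at −0.76, of 0.0299 in DESeq2. An antisense gene, Gm26771, overlaps Sfrp2, and no source used here says whether the counting used strand, so reads of the pair may not be separated.

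Frzb and Sfrp1 did not follow this pattern. Frzb, also called Sfrp3 and best known from articular cartilage (chromosome 2, 80411970 to 80447625, minus strand), measured 13.5, 19.4 and 19.7 CPM in controls and 9.56, 25.7, 16.7 and 12.02 CPM in TBI 1 to 4. TBI 2 was the highest of all 7 libraries and TBI 1 the lowest. The log2 fold change was −0.13 ± 0.32 (SE; 95% interval −0.86 to 0.60), at −0.47 without TBI 2 and 0.051 without TBI 1. Sfrp1, whose loss raises trabecular bone mass in mice (chromosome 8, 23411502 to 23449632, plus strand), measured 4.65, 3.40 and 5.53 CPM in controls and 6.65, 4.43, 3.63 and 3.37 CPM in TBI 1 to 4. Its means were 4.53 ± 1.07 CPM (SD, n = 3) and 4.52 ± 1.49 CPM (SD, n = 4). The interval of its log2 fold change, −0.66 to 0.66, still allows a change as large as those of Wif1 and Sfrp2. Whether the members with low estimates differ from Frzb, Dkk2 and Sfrp1 was not tested.

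Per kilobase of exon, Wif1 mRNA was the most abundant antagonist transcript, with a control level of 31.6 ± 4.28 CPM per kb (SD, n = 3) and a TBI level of 21.3 ± 4.04 (SD, n = 4). Sfrp4 (16.7 ± 1.48 in controls) and Dkk3 (16.6 ± 3.97) followed and overlapped each other. Before division by length, Wif1 and Sfrp4 lay closer, with means of 76.8 and 69.7 CPM in controls and 51.7 and 50.4 CPM after TBI. The length is that of all annotated exons, so their distance depends on it. Sfrp2 stood at 7.77 ± 1.09, Frzb at 5.42 ± 1.07, Sost at 3.71 ± 1.36 and Dkk1 at 2.60 ± 0.603 CPM per kb in controls. Neighbours in this order overlapped between Frzb and Sost, between Sost and Dkk1, and between Dkk2 (1.12 ± 0.290) and Sfrp1 (1.04 ± 0.244), while Sostdc1 was lowest at 0.142 ± 0.0917. After TBI the first 7 places were unchanged and Dkk2 and Sfrp1 exchanged places. The 10 genes together summed to 75.7 to 93.4 CPM per kb in the controls and 50.4 to 71.2 after TBI, without overlap. Within that sum Wif1 held 36.4% ± 1.23 in controls and 37.3% ± 4.57 after TBI, and Dkk3 held 19.0% ± 2.86 and 15.5% ± 1.46. Sost went from 4.31% ± 1.54 to 2.76% ± 1.90.

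**Figure D3:**
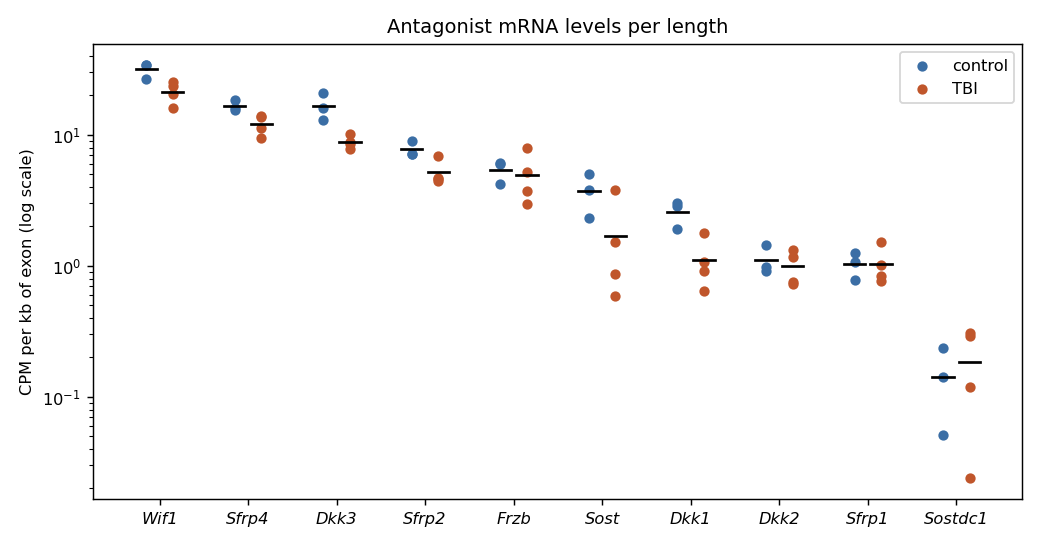
CPM per kilobase of exon (log scale) of the 10 antagonists in 3 control and 4 TBI libraries, ordered by the control mean; short lines are group means. Wif1 leads in both groups, and Sostdc1 reaches at most 0.304.

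The TBI libraries were not alike in these genes. TBI 2 was the highest of the 4 for 6 of the 9 tested members (66.7%): Sost, Dkk1, Dkk3, Wif1, Frzb and Sfrp2. Over all tested genes it was highest for 20.04%. Among markers of tendon, ligament and periosteal fibroblasts TBI 2 was likewise highest for 8 of 12. It was highest for 7 of 16 osteoblast, 3 of 12 osteocyte and 3 of 17 chondrocyte markers, in each of which TBI 1 was highest more often (8, 6 and 10). TBI 4 was the lowest of the 4 for 4 of the 9 members, against 29.2% of all tested genes. It was lowest for 9 of 16 osteoblast and 7 of 12 osteocyte markers, and for 3 of 17 chondrocyte and 1 of 12 tendon and periosteal markers. The part of tissue composition in these differences was not tested.

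Most markers of bone, cartilage and tendon cells also had lower estimates, and none passed the adjusted threshold in edgeR. All 16 osteoblast markers had a lower estimate (median log2 fold change −0.72), as did 11 of 12 osteocyte markers other than the antagonists (−0.51), 16 of 17 chondrocyte markers (−0.66) and 11 of 12 tendon and periosteal markers (−0.68). The TBI and control libraries were separated, with TBI lower, for 9, 5, 11 and 6 of them, against 5.38% of all tested genes. The mean of the osteoblast list was 7.55 to 8.18 log2 CPM in controls and 7.01 to 7.38 after TBI. No marker of these 4 lists was at 0 in any library. In the lists of other cells, none of whose genes was called in edgeR either, 11 of 11 B-cell markers (median −0.74) and 10 of 11 erythroid markers (−0.31) had lower estimates, whereas 13 of 14 neutrophil markers (0.97), 21 of 21 muscle markers (0.71), 7 of 10 marrow stromal markers (0.24) and 7 of 8 endothelial markers (0.12) had higher ones. Their part in the antagonist values was not tested.

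When each antagonist was set against the mean of the osteoblast list in the same library, the remaining difference was −0.70 log2 units for Sost, −0.57 for Dkk1 and −0.20 for Dkk3. It was 0.090 for Sfrp2, 0.11 for Wif1 and 0.21 for Sfrp4. Frzb, Dkk2 and Sfrp1 stood at 0.48, 0.51 and 0.67 on the same scale. With 1 library left out, that of Sost ran from −1.16 (without TBI 2) to −0.39 (without TBI 4), that of Dkk1 from −0.79 to −0.39 and that of Dkk3 from −0.39 (without control 1) to −0.040 (without control 3). Without TBI 3 and TBI 4 together, the value was −0.0020 for Sost, −0.31 for Dkk1 and −0.33 for Dkk3. Two-sided exact permutation p-values of these 9 values ran from 0.171 (Dkk1) to 0.800 (Sfrp2), where 3 against 4 libraries allow no less than 0.0571, and the groups overlapped for each gene. Against the osteocyte list the difference was −0.84 for Sost and −0.72 for Dkk1 (exact permutation p = 0.229 and 0.114). The Sost value ran from −1.28 on leaving out TBI 2 to −0.57 on leaving out TBI 4. With TBI 3 and TBI 4 both left out it was −0.20, and that of Dkk1 was −0.51. Of 36 such comparisons, 9 members against 4 lists, the smallest p was that of Dkk3 against the tendon and periosteal list (−0.40, exact permutation p = 0.0571, 0.686 after Benjamini-Hochberg adjustment).

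**Figure D4:**
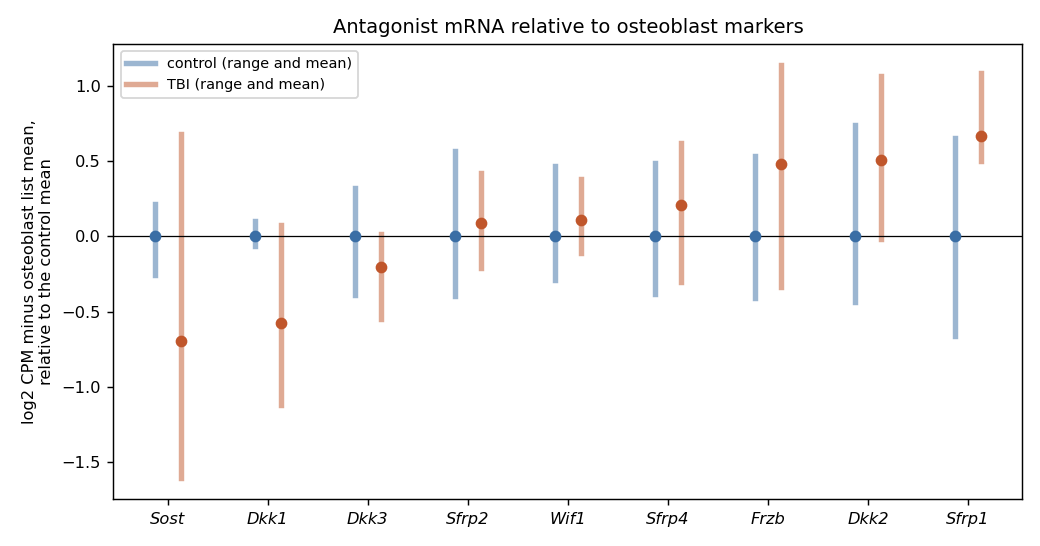
Log2 CPM of each tested antagonist minus the mean log2 CPM of 16 osteoblast markers in the same library, drawn relative to the control mean; bars span the lowest to the highest library and points are means of 3 controls and 4 TBI libraries. Sost and Dkk1 lie lowest after TBI and Sfrp1 highest, with overlapping ranges.

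The other genes of the pathway are given for context. Among 18 receptors and partners of the antagonists, 17 were tested, 10 with a lower and 7 with a higher estimate (median −0.11), and 0 passed the adjusted threshold in edgeR. Lrp4, which anchors sclerostin on bone cells, measured 80.8 ± 17.2 CPM in the 3 controls and 52.2 ± 8.89 CPM in the 4 TBI libraries (mean ± SD), a log2 fold change of −0.63 ± 0.18. Ror1, a Wnt co-receptor, was at −0.75 ± 0.26, and the Frizzled receptor Fzd5 at −0.25 ± 0.12. The co-receptors Lrp5 and Lrp6 themselves, added after their values were seen, were at −0.22 ± 0.12 and −0.11 ± 0.14, and Kremen1, a receptor of Dickkopf proteins also added then, at 0.063 ± 0.21.

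Of 21 ligand and ligand-secretion genes, 11 were tested and 9 had a lower estimate (median −0.25). Of the 11, 4 ligands had no overlap between groups, all lower after TBI, against 5.38% of all tested genes. Among them were Wnt10b (−0.92 ± 0.21), a ligand that promotes bone formation, Wnt5b (−0.79 ± 0.22) and Wnt16 (−0.96 ± 0.27). Wnt16 is known to protect cortical bone. Wnt10b measured 10.2 ± 2.08 CPM in controls and 5.38 ± 0.907 CPM after TBI (mean ± SD of 3 and 4 libraries), and Wnt16 7.29 ± 2.61 and 3.74 ± 0.671 CPM. A further list held the R-spondins, which strengthen Wnt signals, the Lgr receptors and the ligases Znrf3 and Rnf43. All 9 of its genes were tested, 7 with a lower estimate (median −0.19). Rspo4 was at −0.85 ± 0.23, Lgr6 at −0.74 ± 0.43 and Rspo3 at −0.28 ± 0.27.

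Of 15 genes often induced by Wnt signalling, 14 were tested and 13 had a lower estimate (median −0.45). The groups did not overlap, with TBI lower, for 5 of the 14, against 5.38% of all tested genes. Ccn4 was at −0.80 ± 0.18, the transcription factor Twist1 at −0.74 ± 0.17 and the cell-cycle gene Ccnd1 at −0.51 ± 0.13. Axin2, a feedback inhibitor widely used as a readout of β-catenin and added after its values were seen, was at 0.019 ± 0.30, with 5.93 ± 0.783 CPM in the 3 controls and 6.02 ± 2.33 CPM in the 4 TBI libraries (mean ± SD). Of 7 inhibitors outside the 10, 5 were tested, 3 with a lower estimate (median −0.042): Tpbg was at −0.76 ± 0.25, Notum, an enzyme that strips the lipid from Wnt proteins, at −0.51 ± 0.22 and Apcdd1 at 0.14 ± 0.16. Sfrp5, from the same family as members of the 10 and added after its values were seen, was at −0.042 ± 0.43. It measured 2.66, 3.40 and 3.02 CPM in controls 1 to 3 and 1.09, 2.34, 4.39 and 4.01 CPM in TBI 1 to 4. The Dickkopf gene Dkk4 had too few counts to be tested. None of these genes passed the adjusted threshold in edgeR.

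**Figure D5:**
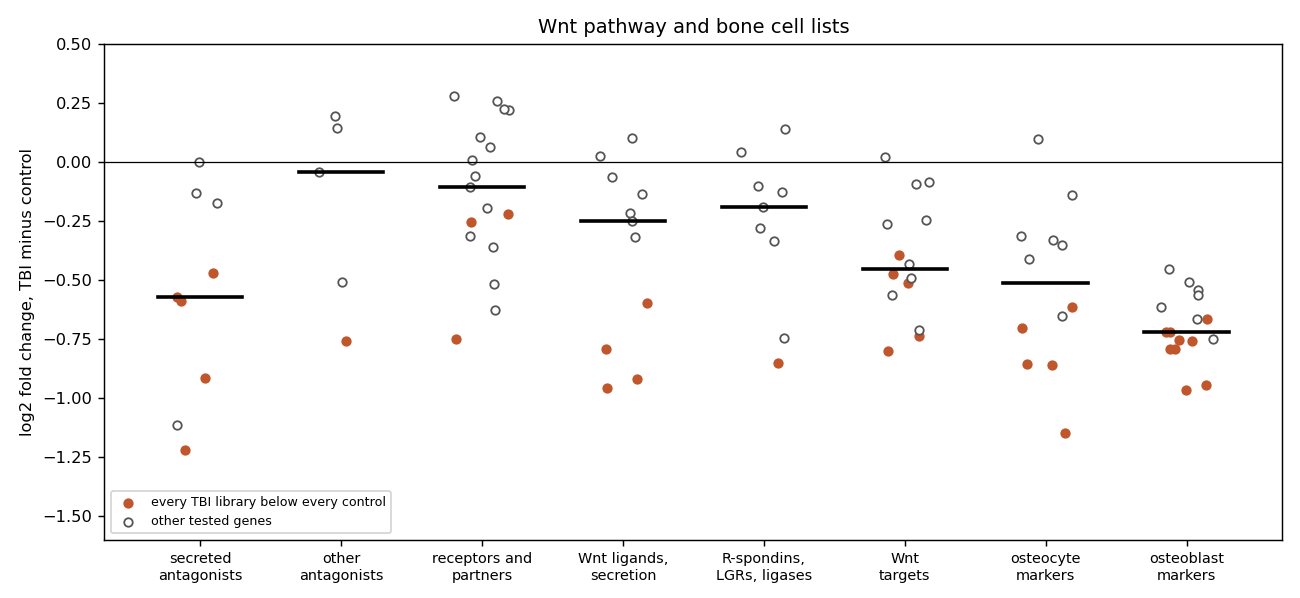
Log2 fold change (TBI minus control) of each tested gene in 6 Wnt lists and 2 bone cell lists, with the list median as a bar; filled points are genes whose 4 TBI libraries all lay below the 3 controls. The antagonists spread from −1.22 to 0, the osteoblast markers from −0.97 to −0.45.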

How the data were processed

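The authors deposited raw read counts per Ensembl gene (whole numbers) and a second table of normalized values on a log2-like scale. Per the labels' protocols, the kit was a stranded one for mRNA; STAR, DESeq and GRCm38 are named in the submitters' processing notes, and no source used here gives the counting step. Symbols came from GENCODE M21 (49326 of 49671 identifiers, 99.3%), and exon lengths from the union of its exons. Genes were filtered with filterByExpr (17144 left), scaled by TMM and tested with edgeR 4.0.16 (glmQLFit, glmQLFTest; R 4.3.3), with Benjamini-Hochberg adjustment over all tested genes and a threshold of 0.05. Standard errors came from the estimate and its F statistic. List means used log2 CPM with a prior count of 2. DESeq2 1.42.0 and limma-voom (limma 3.58.1) were alternatives, beside other scalings, other filters, the replicate block, a muscle covariate and leaving out each library. In the authors' deposited table of log2 values for the same libraries, 9 of the 10 antagonists had a lower mean after TBI, Sfrp1 with a difference of −0.013. The share of all 18549 genes in that table with a lower mean was not taken. No 2 libraries of a group matched within counting error (chi-square per degree of freedom of 27.2 or more).

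The members and gene lists were chosen with earlier results of these data known. The named genes were the 10 members and the 3 genes with the smallest p of each of 5 Wnt lists. On simulated counts of 16754 genes with these libraries' means and spread, edgeR called 0 of the 67 genes set to a 1.5-fold change, 23 of the 67 set to 2-fold and 61 of the 66 set to 4-fold, beside 9 unchanged genes. The numbers for DESeq2 were 6, 42 and 65, beside 48 unchanged genes.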

Additional observations from a re-analysis of the deposited data

Results flagged for a closer look

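In 6 of 66 Wnt genes examined, 1 of the 4 TBI libraries lay far from the other 3 by Dixon's criterion; chance alone marks about 1 gene in 20. Sfrp2 was the only antagonist among them, at 14.9 CPM in TBI 2. Of the others, Lrp4 (65.4 CPM), Lrp5 (40.1 CPM), Fzd8 (6.56 CPM) and Smad6 (7.12 CPM) stood apart in TBI 1, and Wnt7b (1.03 CPM) in TBI 3.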

How the results depend on the processing

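Over 16 alternatives, Sost, Dkk1, Dkk3, Wif1, Sfrp2 and Sfrp4 kept a lower estimate. The number of genes past the threshold was 0 in edgeR and limma-voom under each of their settings. In DESeq2 it was 103 (9 to 199 with 1 library left out). There Sost, Dkk1 and Sfrp2 were called without TBI 2, the highest TBI library of each, as was Dkk3 (adjusted p = 0.0171 in DESeq2), beside 75 genes called in all. Without control 2, DESeq2 gave Sost, Dkk1 and Sfrp2 no adjusted p. With any other library left out, it did not call them. With 1 library left out, 7 to 9 of the 9 tested members were lower and 4 to 6 had separated groups. Their median was −0.67 to −0.47, beside 0.0031 to 0.038 for all tested genes. The shares of all tested genes that were lower or separated were not taken in these settings. Fewer libraries separate more easily, so the 5.38% of the full comparison is no measure for them. Among the 9 tested members, only near-zero values changed sign. Sfrp1 was at 0.00039 with RLE scaling, 3.8e-05 with the filter of 1 CPM in 3 libraries, 0.00056 in DESeq2, 0.080 with the muscle covariate, 0.26 without TBI 3 and TBI 4 (an alternative added once the data were seen) and −0.25 to 0.16 with 1 library left out; in the same leave-outs Dkk2 ran from −0.35 to 0.060 and Frzb from −0.47 to 0.051. The cause was not tested.

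Relative to the osteoblast list, leaving out 1 library gave −0.034 to 0.35 for Wif1, −0.11 to 0.37 for Sfrp2, 0.020 to 0.45 for Sfrp4, 0.29 to 0.88 for Dkk2, 0.26 to 0.75 for Frzb and 0.34 to 0.99 for Sfrp1; relative to the osteocyte list it gave −0.18 to 0.13 for Wif1, −0.17 to 0.16 for Sfrp2 and −0.10 to 0.26 for Sfrp4. Without TBI 3 and TBI 4, Dkk2 was at −0.0087 and −0.20 and Sfrp4 at −0.00081 and −0.20 relative to the 2 lists.

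With the replicate number as a block, without TBI 4, which has no partner, edgeR called 0 genes, 8 of 9 members were lower (median −0.54), and Sfrp1 was at 0.11. The deviations of same-numbered libraries correlated at 0.55, −0.028 and 0.32, and control 2 and control 3 correlated best with a library of another number, so the numbers were not taken as pairs. In the simulated counts edgeR called 0 of the 67 genes set to a 1.5-fold change. Each gene was drawn independently there, without the shifts in tissue content that real libraries share across genes. The detection limit in the real libraries was not tested.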
